A study of Mus musculus with 30 samples.

Results

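Macrophages sorted from mouse tumours for high surface MHC class II were compared after 24 h in culture and straight from the sort. The comparison rests on 10 of the series' 30 RNA-seq libraries, chosen by the group name in the column headers. The cultured group holds 5 libraries of tumour-associated macrophages with high MHC class II (MHC-IIhi) kept for 24 h without lactate, and the fresh group holds 5 libraries of the same subset. All cells came from tumours that 3LL-R cells, a Lewis lung carcinoma line, had formed under the skin of wild-type C57BL/6 mice, whose age and sex are not in the labels. The groups differ in more than culture. Each cultured sample held 250000 cells lysed in the culture plate with 175 µl of RLT buffer, made up to 350 µl, and each fresh sample held 30000 cells sorted directly into 500 µl of RLT buffer with 1% 2-mercaptoethanol. Culture time, cell number and lysis route therefore cannot be told apart. The labels call the samples biological replicates and do not say whether each came from 1 mouse or from pooled mice. The 5 libraries of MHC-IIlo cells in each state and the 5 MHC-IIhi libraries cultured with 20 mM sodium L-lactate are used below for comparison.

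MHC class II molecules show peptides from engulfed proteins to CD4 T cells, while MHC class I molecules show peptides made inside the cell to CD8 T cells. Tumour-associated macrophages are shaped by signals of the tumour around them, among them growth factors, lipids, low oxygen and dying cells, and culture takes those signals away and adds others. Macrophages also answer type I interferon, a secreted alarm signal that they can make themselves, through a common set of antiviral genes.

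Library totals were 22030754 to 29152519 counts in cultured and 16913250 to 21407666 in fresh MHC-IIhi. The first principal component of log2 CPM (counts scaled to a library total of 1000000) held 73.95% of the variance and parted all cultured from all fresh libraries. In edgeR's quasi-likelihood F test, 8484 of 13682 genes (62.0%) passed an adjusted p of 0.05 (Benjamini-Hochberg), 4318 (31.6%) higher and 4166 (30.4%) lower in cultured cells, and 5943 (43.4%) had CPM that did not overlap between the groups. The median log2 fold change of all genes was 0.0119. Changes over 4-fold were called in 1392 genes (10.2%), 779 higher and 613 lower, and changes over 16-fold in 206 higher and 152 lower. With most genes past the threshold, the count of a gene list is read against 31.6% and 30.4%. Both groups held RNA of macrophages: Csf1r, the receptor for the macrophage growth factor, had 808 ± 95.3 CPM in cultured and 1451 ± 30.1 CPM in fresh cells, and the fresh cells held H2-Ab1, a chain of MHC class II, at 4971 ± 559 CPM (mean ± SD, n = 5, as for all levels below). Fold changes are log2 values of cultured over fresh ± SE, gene positions are those of the count table (GRCm38), and values by library follow the numbers of the columns, 3 to 7 in cultured and 1 to 5 in fresh cells. In bulk RNA, fewer cells of a kind and less RNA per cell cannot be told apart.

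**Figure D1:**
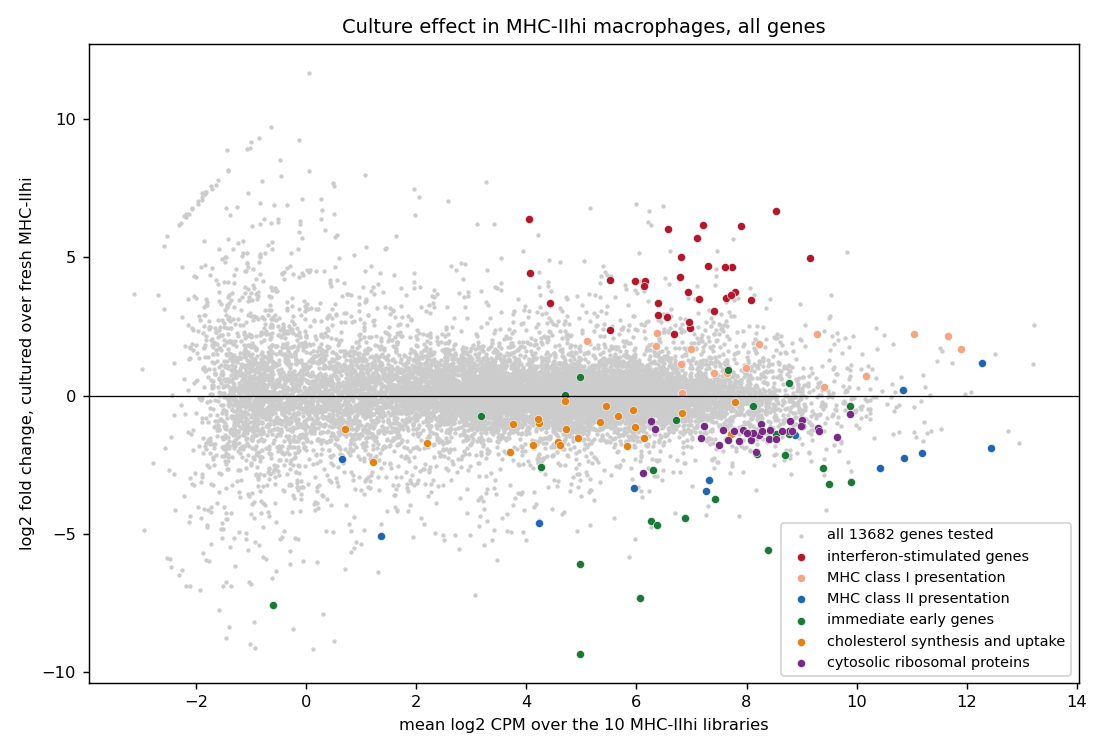
Log2 fold change of cultured over fresh MHC-IIhi (vertical axis) against mean log2 CPM over the 10 libraries (horizontal axis) for the 13682 genes tested, with 6 gene lists in colour. The 32 interferon-stimulated genes lie above 0, the 31 ribosomal protein genes lie below it, and the immediate early genes reach -9.33.

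Interferon-stimulated genes rose together. All 32 of the 32 members tested were higher in cultured MHC-IIhi, with no overlap between the groups in any of them and a median log2 fold change of 4.04, from 2.22 (Gbp7, a GTPase of immunity) to 6.69 (Rsad2). The list took 1.615 to 2.989% of all counts in the cultured libraries, against 0.1027 to 0.1227% in the fresh ones. Rsad2 (ENSMUSG00000020641, chromosome 12, 26442753 to 26456452), which encodes the antiviral enzyme viperin, had 3179, 4265, 4147, 4839 and 2656 CPM in cultured cells, against 36.0, 26.2, 34.4, 43.4 and 48.6 CPM in fresh cells. Its lowest cultured library stood far above its highest fresh one (log2 fold change 6.69 ± 0.24, edgeR adjusted p = 2.05e-15). Its neighbour on chromosome 12, the nucleotide kinase Cmpk2, had 1278 ± 422 CPM in cultured and 18.2 ± 1.94 CPM in fresh cells (6.17 ± 0.25). The Ifit genes, whose proteins hold back foreign RNA, rose by 5.68 (Ifit1), 6.13 (Ifit2) and 6.03 (Ifit3), and Ifit1bl1 by 6.66. Reads of Ifit1 and Ifit1bl1, and of Ifit3 and Ifit3b, may be shared between near copies, so the split within each pair is uncertain. Ifit3b rose by 6.39. Irf7, the factor that drives interferon genes in a feedback loop, had 3319.9, 3417, 3241, 3437 and 2449.8 CPM in cultured cells, against 101, 78.4, 101, 124 and 111 CPM in fresh cells (4.97 ± 0.19, edgeR adjusted p = 3.21e-15). Isg15, a ubiquitin-like protein, had 801 ± 143 CPM in cultured and 31.99 ± 5.72 CPM in fresh cells (4.68 ± 0.20), and the signal carrier Stat2 (3.74) and the factor Irf1 (2.84 ± 0.18) rose as well.

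The interferon gene itself was among the changes. Ifnb1 (ENSMUSG00000048806, chromosome 4, 88522025 to 88522774), which encodes interferon beta and was looked up after its values had been seen, had 8.78, 7.94, 15.9, 23.7 and 3.60 CPM in cultured cells, against 0.167, 0, 0, 0.234 and 0 CPM in fresh cells. It was detected in all 5 cultured libraries and in 2 of the 5 fresh ones (7.12 ± 0.75, edgeR adjusted p = 3.89e-08). Of the cultured libraries, 5 and 6 held the most and 7 the least Ifnb1, and the same order of 7 lowest and 6 highest was seen for Rsad2, Ifit1, Ifit2, Ifit3, Mx1 and Isg15. That order is not particular to interferon-stimulated genes. Irg1 had it, and so did Tmem173, Ciita and Ccr2, which fell with culture (values below). Among receptors of interferon, Ifnar1 (0.61) and Ifnar2 (1.16) rose while Ifngr1 fell (-2.32 ± 0.11) and Ifngr2 rose (0.89). Tmem173, which encodes STING, the adaptor of DNA sensing that leads to interferon, was also looked up after its values had been seen. It had 11.3, 13.1, 14.8, 19.1 and 10.8 CPM in cultured cells, against 120.0, 115, 123, 132 and 119 CPM in fresh cells (-3.11 ± 0.14, edgeR adjusted p = 8.83e-14). Of the 4 interferon-induced chemokines for T cells, 3 rose and 1 fell. Cxcl10 had 609 ± 419 CPM in cultured and 39.1 ± 9.51 CPM in fresh cells (3.97 ± 0.37), Cxcl11 rose by 5.39 and Cxcl16 by 2.08. Cxcl9, in contrast, had 2.68 ± 0.598 CPM in cultured and 18.3 ± 9.23 CPM in fresh cells (-2.75 ± 0.34).

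**Figure D2:**
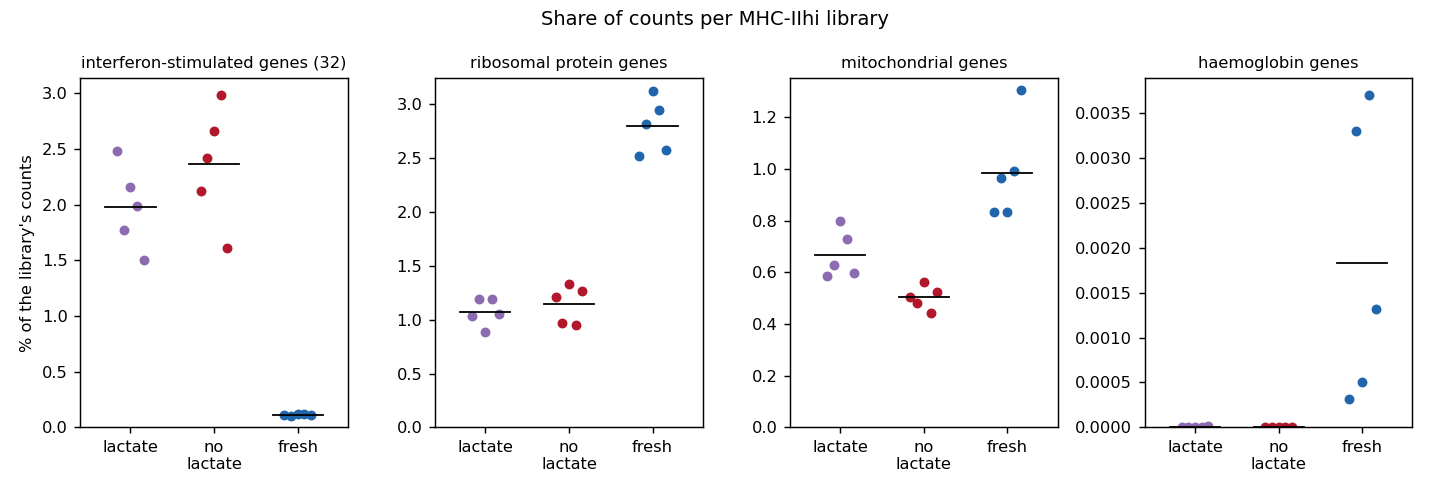
Share of each MHC-IIhi library's counts (vertical axis, percent) in 4 groups of genes, with 1 point per library and a bar at the mean, for cells cultured with lactate, cultured without lactate and fresh. The 32 interferon-stimulated genes take 1.503 to 2.478% with lactate, 1.615 to 2.989% without lactate and 0.1027 to 0.1227% in fresh cells.

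Type I interferon acts through the interferon-stimulated response element, searched here as GAAANNGAAA on both strands in the 250 bases before the start of each gene (RefSeq, GRCm38.p6). Of the 24 list members with a sequence, 15 (62.5%) held it, against 3.46% of all 27025 genes with a sequence. The stretches below are shown because they carry the element of genes that rose, which stands in capitals. They read 5′ to 3′ on the gene's own strand, and RefSeq starts can differ from the starts in the count table.
Rsad2 (chr12:26456538-26456597, minus strand): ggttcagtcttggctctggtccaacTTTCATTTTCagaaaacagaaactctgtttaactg
Ifit1 (chr19:34640760-34640838, plus strand): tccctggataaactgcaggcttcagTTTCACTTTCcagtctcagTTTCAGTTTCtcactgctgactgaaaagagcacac
Ifit3 (chr19:34583348-34583441, plus strand): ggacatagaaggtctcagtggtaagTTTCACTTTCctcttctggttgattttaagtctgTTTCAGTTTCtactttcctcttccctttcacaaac
Isg15 (chr4:156200850-156200921, minus strand): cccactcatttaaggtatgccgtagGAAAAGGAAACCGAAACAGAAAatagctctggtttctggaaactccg
Oas1a (chr5:120907526-120907570, minus strand): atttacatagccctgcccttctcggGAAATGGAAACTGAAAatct
Gbp2 (chr3:142620579-142620638, plus strand): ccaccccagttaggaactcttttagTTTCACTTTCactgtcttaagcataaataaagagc
Gbp5 (chr3:142496744-142496803, plus strand): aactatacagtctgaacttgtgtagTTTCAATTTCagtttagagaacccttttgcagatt
Bst2 (chr8:71537562-71537627, minus strand): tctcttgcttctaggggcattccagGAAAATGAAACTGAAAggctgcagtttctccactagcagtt
Ifit1, Ifit3, Oas1a and Bst2 held the element at 2 places, overlapping in Oas1a and Bst2, and Isg15 held 3 overlapping matches, while Rsad2, Gbp2 and Gbp5 held 1. The antiviral enzyme Oas1a had 291 ± 30.1 CPM in cultured and 54.6 ± 4.11 CPM in fresh cells, the GTPases Gbp2 and Gbp5 rose by 3.64 and 4.16, and Bst2, which tethers viruses to the cell surface, rose by 3.44. A match describes letters and does not show that a factor bound there.

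MHC class I genes rose and MHC class II genes fell. Of 16 class I presentation genes tested, 15 were higher in cultured MHC-IIhi and 0 lower, and the peptide trimmer Erap1 did not pass (0.10), with a median of 1.69. H2-K1, a class I heavy chain, had 5292, 4604, 3749, 4734 and 4377 CPM in cultured cells, against 1016, 873, 958, 1098 and 1004 CPM in fresh cells (2.24 ± 0.15, edgeR adjusted p = 3.28e-11). Every cultured library exceeded every fresh one, although class I genes are near copies of each other and share reads. The light chain B2m had 6798 ± 595 CPM in cultured and 1557 ± 163 CPM in fresh cells (2.16 ± 0.14). Nlrc5, the regulator of class I genes, rose by 2.27 ± 0.14, and the peptide loading proteins Tapbp, Tap1 and Tapbpl rose by 2.23, 1.87 and 1.97.

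Of 13 class II presentation genes, 11 were lower and 1 higher in cultured MHC-IIhi, with a median of -2.28. H2-Ab1 (ENSMUSG00000073421, chromosome 17, 34263209 to 34269418) had 1289, 1085, 979, 1471 and 832 CPM in cultured cells, against 4548, 5741, 5165, 5084 and 4316 CPM in fresh cells. The groups did not overlap, and the highest cultured library still lay below the lowest fresh one (-2.09 ± 0.34, edgeR adjusted p = 2e-05). The other chains H2-Aa and H2-Eb1 fell by 2.25 and 2.62 on the log2 scale, and Cd74, the invariant chain, had 2855 ± 548 CPM in cultured and 10994 ± 1054 CPM in fresh cells (-1.90 ± 0.31). The chaperones that load class II had larger changes: H2-DMa -3.45 ± 0.20, H2-DMb1 -3.05 ± 0.17 and H2-DMb2 -4.60 ± 0.14. H2-DMb2 had 3.53, 3.31, 3.94, 3.35 and 4.48 CPM in cultured cells, against 83.4, 116, 102, 81.5 and 82.3 CPM in fresh cells. Ciita, the master regulator of the class II family, had 17.9, 15.7, 24.7, 28.2 and 12.9 CPM in cultured cells, against 214, 304, 187, 162 and 170.5 CPM in fresh cells (-3.33 ± 0.33, edgeR adjusted p = 2.01e-08). The member that rose was the protease Ctss (1.17 ± 0.16), and the protease Lgmn did not pass (0.21). Ctss had 0.00 and no call in the authors' FPKM table, whose columns all show the same distribution.

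The CCAAT box, searched as CCAAT on both strands, stood in 8 of the 10 class II presentation genes with a sequence (80%), against 37.5% of all genes. In class II promoters it is known as the Y box. These stretches are shown for class II genes that fell, with the box in capitals (ATTGG on the other strand).
H2-Aa (chr17:34287842-34287896, minus strand): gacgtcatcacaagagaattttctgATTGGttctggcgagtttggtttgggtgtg
H2-Eb1 (chr17:34305783-34305861, plus strand): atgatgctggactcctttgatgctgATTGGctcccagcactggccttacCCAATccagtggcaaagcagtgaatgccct
H2-DMb1 (chr17:34153105-34153159, plus strand): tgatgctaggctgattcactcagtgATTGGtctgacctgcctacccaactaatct
H2-DMb2 (chr17:34145134-34145188, plus strand): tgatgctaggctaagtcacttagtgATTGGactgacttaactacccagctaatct
H2-Oa (chr17:34092311-34092365, plus strand): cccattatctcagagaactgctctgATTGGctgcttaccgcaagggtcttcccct
H2-DMb1 and H2-DMb2 are near copies that may share reads, and both carried the box. Their log2 fold changes were -3.05 and -4.60, with 55.3 ± 12.3 and 3.73 ± 0.492 CPM in cultured cells and 475 ± 45.1 and 93.2 ± 15.6 CPM in fresh cells. The box was also in 16 of 16 cholesterol genes, nearly all of which fell, and in 16 of 21 proliferation genes, most of which rose.

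**Figure D3:**
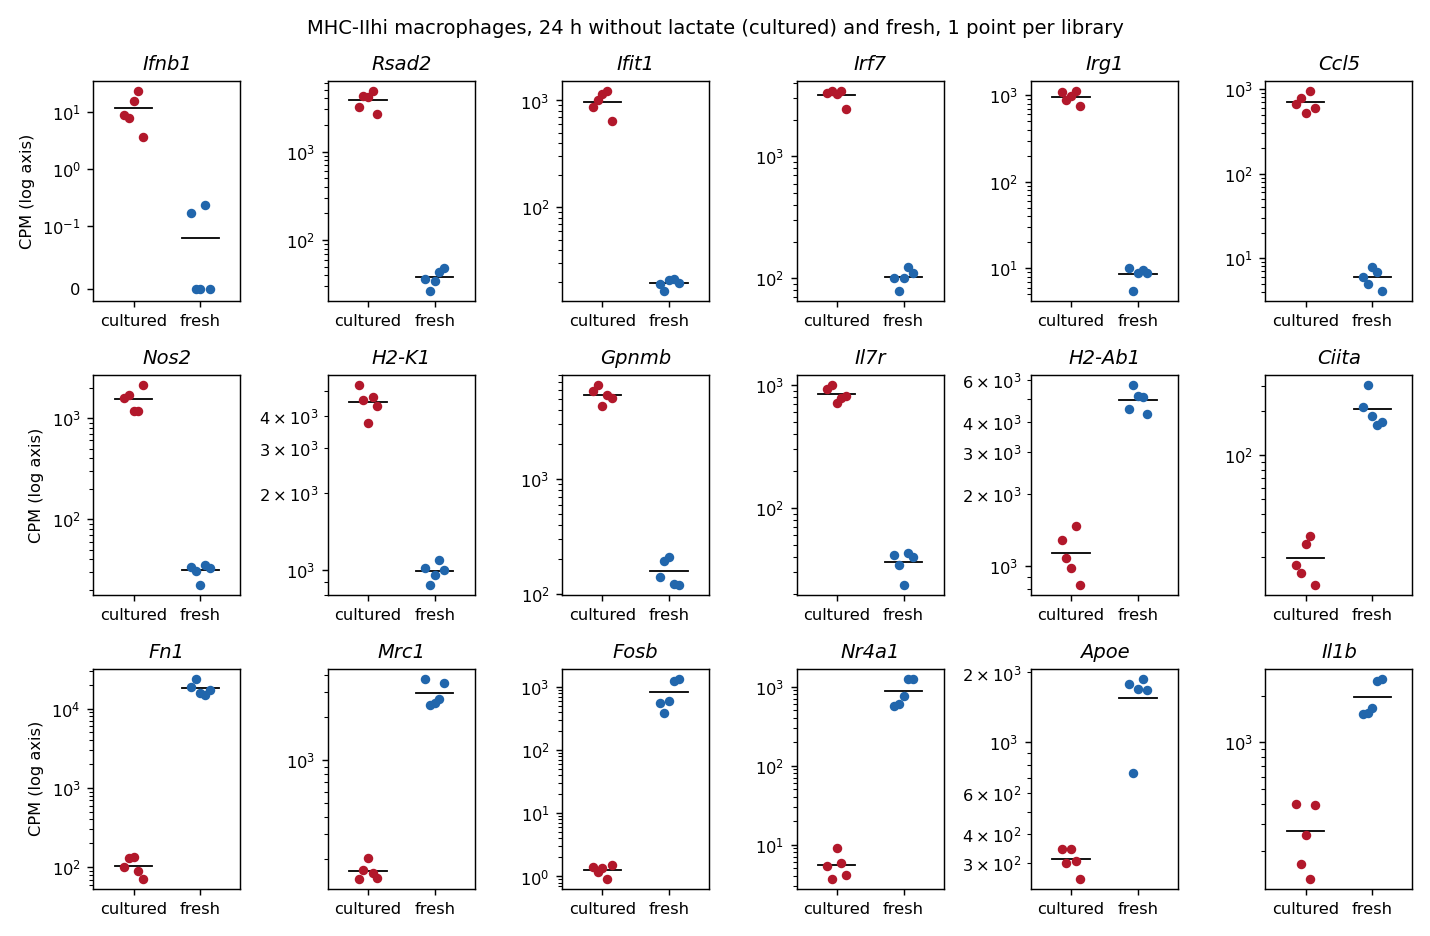
CPM of 18 genes in each cultured and each fresh MHC-IIhi library (vertical log axis; for Ifnb1 the axis is linear below 0.1 CPM), with 1 point per library and a bar at the mean. In each of the 18 panels the points of the groups lie apart, with the cultured group above in the first 10 genes and below in the other 8.

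Apart from the genes described above with the interferon response, the largest rises among well-expressed genes were those of Ccl5, Irg1, Kdr, Slamf7, Nos2 and Ly6a. Whether these rises belong to the interferon response was not tested. Irg1 (ENSMUSG00000022126, chromosome 14, 103046977 to 103056573), also called Acod1, makes itaconate from an intermediate of the TCA cycle in activated macrophages. It had 1094, 876, 974, 1119 and 759 CPM in cultured cells, against 10.02, 5.44, 8.88, 9.48 and 8.97 CPM in fresh cells (6.84 ± 0.23, edgeR adjusted p = 8.05e-16). Ccl5 (ENSMUSG00000035042, chromosome 11, 83525778 to 83530518), a chemokine for T cells and monocytes, had 660.4, 789.8, 529, 951 and 604 CPM in cultured cells, against 6.01, 4.91, 7.97, 6.96 and 4.06 CPM in fresh cells (6.93 ± 0.24, edgeR adjusted p = 1.48e-15). Nos2, which makes nitric oxide from arginine, had 1576, 1695, 1164, 1165 and 2132 CPM in cultured cells, against 33.9, 31.0, 22.3, 35.2 and 33.1 CPM in fresh cells (5.66 ± 0.28, edgeR adjusted p = 3.2e-13). In all 3 genes the groups were far apart, and cultured library 7 was the highest for Nos2 and the lowest for Irg1. Kdr, a receptor for vessel growth factors best known from endothelium, had 379 ± 114 CPM in cultured and 3.47 ± 0.831 CPM in fresh cells (6.80 ± 0.24). Slamf7, a surface receptor of immune cells, rose by 6.29 ± 0.20 and the surface protein Ly6a, also called Sca-1, by 5.23 ± 0.24. For Irg1, the 100 bases before the start (chr14:103046912-103047011, plus strand) are shown as the promoter of one of the largest rises; they hold no match to GAAANNGAAA, nor do the bases further up to 250.
Irg1: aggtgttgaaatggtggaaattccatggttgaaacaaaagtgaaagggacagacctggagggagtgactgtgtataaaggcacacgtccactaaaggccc

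Cytokines mostly rose and CC chemokines mostly fell. Of 20 cytokine genes, 13 were higher and 4 lower in cultured cells (median 1.23). Il12a and Il12b, the chains of interleukin 12, rose by 5.04 and 3.66 at low levels, with 7.52 ± 2.49 CPM for Il12b in cultured and 0.606 ± 0.930 CPM in fresh cells. Csf1, the macrophage growth factor, had 309.6 ± 65.9 CPM in cultured and 46.6 ± 10.5 CPM in fresh cells (2.76 ± 0.16), and the interleukins Il10 (3.07), Il15 (2.68) and Il1a (2.38) rose as well. Il1b, in contrast, had 403, 166, 254, 132 and 395 CPM in cultured cells, against 1520.3, 1541, 1651, 2480.4 and 2568 CPM in fresh cells (-2.85 ± 0.34, edgeR adjusted p = 2.53e-07). All cultured libraries lay below all fresh ones, and fresh libraries 4 and 5 were the highest. The cytokine Osm fell by 4.30 on the log2 scale, Tgfb1 fell by 1.47, and Tnf did not pass (-0.02). Of 12 CC chemokines, 9 were lower and 2, Ccl5 and Ccl22 (4.00 ± 0.38), higher. Ccl6 had 168, 215, 172, 138 and 159.5 CPM in cultured cells, against 5206, 4088, 5299, 5881 and 5788 CPM in fresh cells (-4.92 ± 0.17, edgeR adjusted p = 1.48e-15). The cultured libraries were all far below the fresh ones. Ccl17, which draws T cells, had 5.69 ± 2.34 CPM in cultured and 174 ± 40.8 CPM in fresh cells. Of the NF-kB regulators and targets, 12 of 23 were higher and 2 lower, with the T cell signal receptor Cd40 at 3.26 ± 0.18 and the superoxide dismutase Sod2 at 2.33 ± 0.13. Checkpoint and costimulation genes had 7 higher and 6 lower of 18, close to the shares over all genes tested (31.6% and 30.4%). Cd274, which encodes PD-L1, had 1489, 1699, 1462, 1691 and 1477 CPM in cultured cells, against 159, 143, 138, 172 and 195 CPM in fresh cells (3.31 ± 0.14, edgeR adjusted p = 2e-14), with no overlap. The T cell costimulators Cd80 (-1.43) and Icosl (-2.40) fell, and Cd86 did not pass (-0.20). Of 19 Toll-like receptor genes, 11 were higher, among them the RNA and DNA sensors Tlr3 (2.71), Tlr7 (1.76), Tlr9 (2.15) and Tlr13 (1.76). Of the 4 that were lower, Tlr5 (-2.28), Tlr4 (-0.58) and Cd14 (-1.94) sense bacterial products at the cell surface. The largest rise of the list, however, was that of Cd180 (3.04), also a surface receptor.

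Immediate early genes, which answer stimuli within minutes, mostly fell. Of 28 members, 22 were lower and 2, Myc (0.91) and Fosl1 (0.68), higher in cultured cells (median -2.36). Fosb, a subunit of the factor AP-1, had 1.41, 1.18, 1.39, 0.915 and 1.51 CPM in cultured cells, against 559, 387, 602, 1233 and 1353 CPM in fresh cells (-9.33 ± 0.51, edgeR adjusted p = 1.66e-12). Fos, its partner gene in the same family, had 42.4, 42.4, 74.5, 61.1 and 27.8 CPM in cultured cells, against 2462, 2113, 2494, 2659 and 2377 CPM in fresh cells (-5.58 ± 0.26, edgeR adjusted p = 8.77e-14). The fresh libraries 4 and 5 were the highest for Fosb, and fresh libraries differed less for Fos. Nr4a1 (ENSMUSG00000023034, chromosome 15, 101266846 to 101274792), an orphan nuclear receptor, had 5.28, 3.68, 8.94, 5.79 and 4.12 CPM in cultured cells, against 572, 600.5, 761, 1257 and 1257 CPM in fresh cells (-7.32 ± 0.38, edgeR adjusted p = 4.97e-13). The zinc finger factors Egr1 (-6.08 ± 0.21), Egr2 (-4.53 ± 0.28), Klf2 (-4.68 ± 0.31) and Klf4 (-3.74 ± 0.35) fell too, and so did Btg2, a brake on growth (-4.41 ± 0.19). Heat shock genes were mixed, 8 lower and 4 higher of 16 (median -0.28). The inducible chaperones Hspa1a and Hspa1b, near copies whose reads may be shared, fell by 4.20 and 4.11 on the log2 scale, with Hspa1a at 6.12 ± 1.51 CPM in cultured and 112 ± 35.8 CPM in fresh cells. Both lists are known to respond to the isolation of cells from tissue, and the part of isolation in these changes was not tested.

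The cyclic AMP response element, TGACGTCA, which reads the same on both strands, stood in 3 of 23 immediate early genes with a sequence (13%), against 1.77% of all genes. The 3 stretches are shown with the element in capitals. They are followed by the 100 bases before the start of Nr4a1, one of the largest falls, which do not hold it.
Btg2 (chr1:134079289-134079346, minus strand): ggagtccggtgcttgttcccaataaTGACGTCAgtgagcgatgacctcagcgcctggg
Dusp1 (chr17:26508583-26508640, minus strand): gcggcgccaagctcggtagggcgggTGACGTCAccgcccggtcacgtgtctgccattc
Ppp1r15a (chr7:45526269-45526305, minus strand): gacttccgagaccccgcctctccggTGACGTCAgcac
Nr4a1 (chr15:101266746-101266845, plus strand): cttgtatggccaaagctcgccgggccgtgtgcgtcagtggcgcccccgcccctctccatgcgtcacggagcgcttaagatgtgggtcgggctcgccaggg
Dusp1, a phosphatase that turns off stress kinases, had 280.2 ± 104 CPM in cultured and 1744 ± 362 CPM in fresh cells, and Ppp1r15a, a regulator of translation under stress, had 82.8 ± 44.7 CPM in cultured and 155 ± 42.5 CPM in fresh cells.

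**Figure D4:**
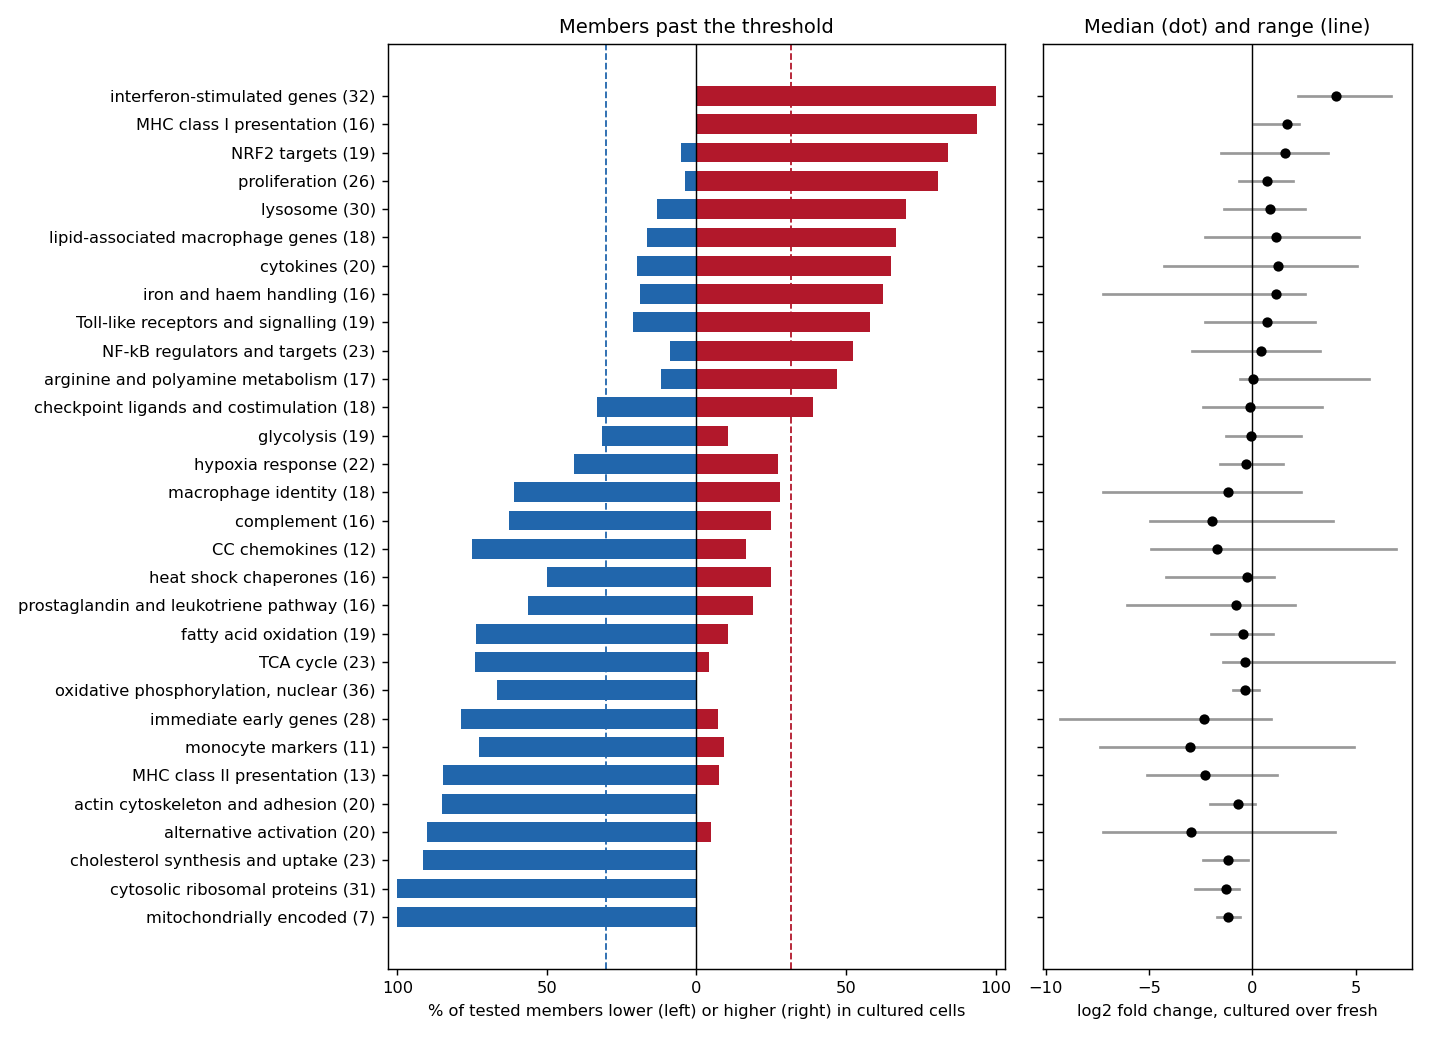
Share of tested members of 30 gene lists that were lower (left, blue) or higher (right, red) in cultured MHC-IIhi, in percent, with the share over all genes as dashed lines (30.4% and 31.6%) and the number of members tested in brackets. Beside them stand the median (dot) and range (line) of the log2 fold changes, from a median of 4.04 for the interferon-stimulated genes to -3.03 for monocyte markers.

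Genes that mark the macrophage's state in the tumour mostly fell. Of 20 alternative activation genes, 18 were lower, 1 (Ccl22) was higher and Arg1 did not pass (median -2.97). Mrc1, the mannose receptor CD206, had 146, 169.6, 205, 159.5 and 147 CPM in cultured cells, against 3741, 2429, 2531, 2682 and 3461 CPM in fresh cells (-4.14 ± 0.18, edgeR adjusted p = 4.68e-14). Cd163, the scavenger receptor for haemoglobin, had 0.720, 0.772, 0.462, 0.653 and 0.625 CPM in cultured cells, against 112, 64.5, 88.2, 99.5 and 129 CPM in fresh cells (-7.22 ± 0.31, edgeR adjusted p = 2.7e-14). Neither gene overlapped between the groups. The lectin Mgl2 had 15.3 ± 7.18 CPM in cultured and 429 ± 34.1 CPM in fresh cells (-4.75 ± 0.40), while Arg1, which breaks down arginine, had 1697, 1999, 1946, 1149.6 and 1125 CPM in cultured cells, against 1997, 1256, 2084, 2691 and 2165 CPM in fresh cells, which overlap (-0.34 ± 0.26, edgeR adjusted p = 0.253).

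Of 18 macrophage identity genes tested, 11 were lower and 5 higher. Adgre1, which encodes F4/80, had 878, 669, 748, 828 and 773 CPM in cultured cells, against 215, 110.0, 180.4, 192 and 229 CPM in fresh cells (2.09 ± 0.19, edgeR adjusted p = 5.04e-09). The Fc receptor Fcgr1 (2.33 ± 0.15) and the sialic acid lectin Siglec1 (2.37 ± 0.27) rose as well. The C1q chains of complement fell, C1qa by 1.98, C1qb by 2.25 and C1qc by 2.15 on the log2 scale. Csf1r fell by 0.81 on the log2 scale (edgeR adjusted p = 6.26e-05). Of 11 monocyte markers, 8 were lower and 1 higher. Fn1 (ENSMUSG00000026193, chromosome 1, 71585520 to 71653200), the matrix protein fibronectin, had 100.3, 130, 134, 88.5 and 71.4 CPM in cultured cells, against 18833, 23821, 15696, 14978 and 17189 CPM in fresh cells (-7.39 ± 0.26, edgeR adjusted p = 1.25e-15). Ccr2, the receptor that brings monocytes into tissue, had 37.0, 46.7, 85.2, 93.5 and 15.2 CPM in cultured cells, against 1152, 1439, 1082, 989 and 1170.3 CPM in fresh cells (-4.35 ± 0.37, edgeR adjusted p = 1.42e-09). Neither gene overlapped between the groups, and cultured library 7 was the lowest for both. The marker that rose was Ly6c2, with 58.5, 86.4, 208, 333 and 25.5 CPM in cultured cells, against 8.30, 2.602, 5.57, 4.44 and 3.67 CPM in fresh cells (4.90 ± 0.55, edgeR adjusted p = 1.17e-07). It may share reads with Ly6c1, a near copy. Its cultured libraries 5 and 6 were the highest and 7 the lowest, the order also seen for Ifnb1 and for Ccr2, which fell. Further falls among well-expressed genes were those of Trem1, a receptor that amplifies inflammation (-5.17 ± 0.32), Cbr2, a carbonyl reductase (-4.69 ± 0.29), and Il1r2, the decoy receptor for interleukin 1 (-4.41 ± 0.19). Cdh1, the adhesion protein E-cadherin, had 7.68, 5.81, 7.34, 8.71 and 8.53 CPM in cultured cells, against 455, 506, 396, 434 and 428 CPM in fresh cells (-5.83 ± 0.19, edgeR adjusted p = 4.73e-16).

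Lysosomal, lipid-associated macrophage and antioxidant genes mostly rose. Of 30 lysosomal genes, 21 were higher and 4 lower in cultured cells (median 0.86). The cathepsin gene Ctsb had 10859, 11260.0, 8484, 9755 and 9344 CPM in cultured cells, against 4001, 2118, 3632, 3907 and 4022 CPM in fresh cells (1.52 ± 0.19, edgeR adjusted p = 5.82e-07), and the lipase Lipa, the galactosidase Gla and the cathepsin Ctsk rose by 2.25, 2.53 and 2.21. Of 18 lipid-associated macrophage genes, 12 were higher and 3 lower. Gpnmb, a glycoprotein of lysosomes and the cell surface, had 5778, 6602, 4324, 5373 and 5099.7 CPM in cultured cells, against 141, 194, 209, 122 and 119 CPM in fresh cells (5.18 ± 0.18, edgeR adjusted p = 1.48e-15). The fatty acid receptor Cd36 (2.67 ± 0.21) and the lipid droplet coat Plin2 (2.01) rose, whereas Apoe, the lipid carrier, had 346, 299.5, 347, 307 and 256 CPM in cultured cells, against 1789, 734, 1695, 1881 and 1686 CPM in fresh cells (-2.30 ± 0.22, edgeR adjusted p = 1.22e-08). Fresh library 2 was the lowest fresh library for Apoe, Adgre1 and Ctsb. Of 19 targets of NRF2, the factor of the antioxidant response, 16 were higher and 1, the transketolase Tkt (-1.51 ± 0.10), lower. Fth1, the ferritin heavy chain that stores iron, had 23934, 24886, 19648, 23077 and 23442 CPM in cultured cells, against 4080.4, 2883, 3518, 4827 and 4772 CPM in fresh cells (2.54 ± 0.20, edgeR adjusted p = 3.71e-10), and ferritin pseudogenes can share its reads. Every cultured library lay above every fresh one. The adaptor Sqstm1 (2.16 ± 0.18), the haem oxygenase Hmox1 (1.00 ± 0.31) and the quinone reductase Nqo1 (3.66 ± 0.28) rose too. Of 16 iron and haem genes, 10 were higher, some of them NRF2 targets as well.

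The palindrome CACGTG, the core of the element that the lysosomal regulator TFEB binds, was in 8 of the 21 lysosomal genes with a sequence (38.1%), against 6.86% of all genes. Examples are shown with the palindrome in capitals, 2 of genes that rose and 1, Ctsa, of a gene that did not pass.
Mcoln1 (chr8:3500423-3500504, plus strand): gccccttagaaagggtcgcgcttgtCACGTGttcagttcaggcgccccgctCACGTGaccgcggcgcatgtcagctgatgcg
Ctsd (chr7:142387895-142388077, minus strand): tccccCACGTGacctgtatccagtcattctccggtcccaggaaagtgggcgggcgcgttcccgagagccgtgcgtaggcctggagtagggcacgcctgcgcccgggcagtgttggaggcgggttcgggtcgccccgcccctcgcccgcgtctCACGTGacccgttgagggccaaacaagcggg
Ctsa (chr2:164833736-164833772, plus strand): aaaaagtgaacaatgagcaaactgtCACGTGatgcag
Mcoln1, a calcium channel of the lysosome, and the cathepsin gene Ctsd rose by 0.94 and 1.18, and Ctsa had -0.27. Tfeb itself was lower in cultured cells (-0.46).

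Most metabolic lists held more lower than higher genes. Cholesterol synthesis and uptake had 21 of 23 members lower and 0 higher in cultured cells (median -1.19), as the sterol enzymes Lss (-2.03 ± 0.17) and Dhcr7 (-1.80 ± 0.13). Dhcr7 had 7.58, 7.58, 13.5, 9.45 and 8.56 CPM in cultured cells, against 31.9, 33.2, 40.0, 30.8 and 30.1 CPM in fresh cells, with no overlap. TCA cycle genes had 17 lower of 23, and the member that rose was Irg1. The fumarase Fh1 had 23.8 ± 4.25 CPM in cultured and 64.3 ± 4.20 CPM in fresh cells. Nuclear genes of oxidative phosphorylation had 24 lower and 0 higher of 36 with a small median (-0.36), and fatty acid oxidation genes 14 lower and 2 higher of 19. All 7 tested genes of the mitochondrial genome were lower, with mt-Cytb at 405, 391, 606, 445 and 509.9 CPM in cultured cells, against 1327, 1483, 1289, 1535 and 2113 CPM in fresh cells (-1.70 ± 0.17, edgeR adjusted p = 1.53e-08). The groups did not overlap, with fresh library 5 the highest. Of 19 glycolysis genes 2 were higher and 6 lower, the higher ones being the kinases Pfkfb3 (2.35 ± 0.17) and Hk3 (2.03 ± 0.16). Hypoxia genes had 6 higher and 9 lower of 22, with a median of -0.31, against -1.48 in MHC-IIlo. Of these 22 genes 19 differed between the subsets, against 14.3% of all genes tested. Among them Vegfa, the vessel growth factor, had 156, 171, 125, 92.6 and 191 CPM in cultured cells, against 239, 181, 289, 529.6 and 475 CPM in fresh cells, which overlap in part (-1.22 ± 0.31, edgeR adjusted p = 0.0017). In arginine and polyamine metabolism 8 of 17 were higher, among them Nos2, Ass1, which rebuilds arginine (2.36 ± 0.24), and Arg2 (2.25). In the leukotriene and prostaglandin pathway 9 of 16 were lower, with the lipoxygenase Alox5 at 2.29 ± 0.886 CPM in cultured and 68.9 ± 4.88 CPM in fresh cells, and 3 were higher, among them the prostaglandin E synthase Ptges (1.88).

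All 31 ribosomal protein genes of the list were lower in cultured cells (median -1.30). A wider set, all protein-coding genes named Rpl or Rps with a number, held 0.9535 to 1.332% of counts in cultured and 2.515 to 3.125% in fresh libraries. Rpl4 had 479, 404, 564, 389.6 and 530.0 CPM in cultured cells, against 1229, 1461, 1486, 1374 and 1287 CPM in fresh cells (-1.50 ± 0.09, edgeR adjusted p = 7.77e-12), and reads of such genes can be shared with pseudogenes. Of 20 cytoskeleton and adhesion genes 17 were lower and 0 higher, as the actin gene Actg1 (-2.04 ± 0.13) and the actin binder Vcl (-1.27 ± 0.11). Proliferation genes had 21 higher and 1 lower of 26 with modest sizes (median 0.70), as the mitotic kinase Aurka (1.40 ± 0.22) and the clamp Pcna (0.86 ± 0.08). Changes also moved with gene length and GC content. Genes tested were cut into 5 groups of like number by each. Of those with the lowest GC content (31.19 to 43.9%), 40.4% were higher and 20.9% lower, and of those with the highest (55.27 to 83.15%), 20.7% were higher and 41% lower. Of the longest genes (6474 to 116825 bases) 41% were higher, and of the shortest (57 to 1837 bases) 19.8%. The trend goes together with culture, cell number and lysis route, which cannot be told apart.

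Markers of other cell types were compared as well. Red cell and platelet markers were lower in 5 of 6 tested. Hbb-bs, a haemoglobin chain, had 0, 0, 0.0839, 0 and 0.0367 CPM in cultured cells, against 1.45, 19.04, 2.65, 20.4 and 7.38 CPM in fresh cells. Hbb-bt and Alas2, of haemoglobin and haem synthesis, had 0 counts in all 5 cultured libraries and 177 and 62 counts over the fresh ones, at least 15.1-fold and 5.5-fold lower when 3 counts are set in each cultured library. Klrb1c, which marks NK cells, likewise had 0 counts in cultured and 116 in fresh libraries, at least 9.91-fold lower. Of 10 T and NK cell markers tested, 1 was higher and 3 were lower, and the T cell genes Cd3e, Cd3d and Cd3g averaged under 1 CPM in both groups. Neutrophil markers were higher in 3 and lower in 3 of 7. The neutrophil gene S100a9 had 0.0343, 0, 0, 0 and 0.184 CPM in cultured cells, against 12.5, 9.52, 15.5, 10.5 and 15.6 CPM in fresh cells, whereas the collagenase Mmp8, on the same neutrophil list, rose by 2.13 and had 761 ± 110.2 CPM in cultured and 177 ± 40.9 CPM in fresh cells. Dendritic cell markers were higher in 4 and lower in 1 of 9 tested. Ccr7, which steers cells to lymph nodes, had 120.0, 68.8, 230.5, 196 and 113 CPM in cultured cells, against 5.74, 2.13, 10.01, 5.61 and 2.43 CPM in fresh cells (4.84 ± 0.53, edgeR adjusted p = 7.81e-08). Cultured library 5 held the most. Flt3, a growth factor receptor, had 29.2 ± 14.6 CPM in cultured and 2.26 ± 1.06 CPM in fresh cells (3.73 ± 0.45). The lectin Cd209a was the member that was lower, with 0, 0, 0.0839, 0 and 0 CPM in cultured cells, against 17.5, 20.9, 14.4, 5.79 and 6.24 CPM in fresh cells (edgeR adjusted p = 3.84e-09). It thus was detected in 1 cultured library and in every fresh one. The defining markers of cross-presenting dendritic cells, Clec9a and Xcr1, were too low to be tested. Il7r, on the list of T cell markers, had 933, 1008, 721, 787 and 811 CPM in cultured cells, against 41.1, 34.4, 23.5, 43.4 and 39.5 CPM in fresh cells (4.58 ± 0.22, edgeR adjusted p = 1.45e-13), and of B cell markers Pax5 rose (2.57 ± 0.31) while Cd79b (-4.20) and Ighm (-2.20) fell. Of 10 fibroblast markers 2 were higher. The summed dendritic cell list ran from 242 to 828 CPM in cultured and from 56.4 to 148 CPM in fresh libraries, with no overlap. The list of red cells and platelets ran from 338 to 544 CPM in cultured and from 413 to 1189 CPM in fresh libraries, most of it from Pf4, which did not pass (-0.52). The part of other cells in the results above was not tested.

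The same contrast in MHC-IIlo cells, from 5 cultured and 5 fresh libraries, shows where the response of MHC-IIhi differed. The difference of the 2 culture effects passed in 1957 genes (14.3%), 1132 (8.27%) with a higher and 825 (6.03%) with a lower change in MHC-IIhi. That split differed between alternatives. With levels adjusted for GC content and gene length, chosen after the data were seen, 883 were higher and 1359 lower. In the authors' FPKM values, fitted with limma on the 11338 genes left after a filter on low values, 988 were higher and 1211 lower. The cause was not tested. Among genes with a mean log2 CPM of at least 5 in the MHC-IIhi libraries, the largest positive differences were those of Ccl22, Cxcl3, Il1b and Cxcl1. Cxcl3, a chemokine for neutrophils, had 921, 783, 713, 598 and 1198 CPM in cultured MHC-IIhi, against 335, 120.0, 218, 348 and 363 CPM in fresh MHC-IIhi, a rise of 1.61, and in MHC-IIlo it averaged 94.9 ± 33.8 CPM in cultured and 797 ± 194 CPM in fresh cells, a fall of 3.04 on the log2 scale (difference 4.64 ± 0.43, edgeR adjusted p = 4.79e-07). Cxcl1 likewise rose by 1.35 in MHC-IIhi and fell by 2.85 on the log2 scale in MHC-IIlo (difference 4.20 ± 0.58). The cultured and fresh libraries of neither gene overlapped in MHC-IIhi. Il1b was lower in both subsets, with a log2 fold change of -2.85 in MHC-IIhi and -7.32 in MHC-IIlo, where it averaged 4.85 ± 2.25 CPM in cultured and 808 ± 219 CPM in fresh cells (difference 4.47 ± 0.48, edgeR adjusted p = 2.3e-06). Ccl22, a chemokine for regulatory T cells, had 223, 138, 292, 289.5 and 246 CPM in cultured MHC-IIhi, against 23.1, 10.4, 26.8, 10.4 and 6.14 CPM in fresh MHC-IIhi, with no overlap. Its log2 fold change did not pass in MHC-IIlo (-0.64, difference 4.64 ± 0.70). Arg1 did not pass in MHC-IIhi and fell by 3.58 on the log2 scale in MHC-IIlo, a difference of 3.24 ± 0.37 (edgeR adjusted p = 4.94e-06). Among immune and metabolic genes with larger log2 fold changes in MHC-IIhi, Nos2 had 5.66 in MHC-IIhi and 2.62 in MHC-IIlo (difference 3.04 ± 0.34), Cd40 3.26 and 0.73 (2.53 ± 0.24), Pfkfb3 2.35 and 0.25 (2.1 ± 0.23), and Adgre1 2.09 and 0.50 (1.6 ± 0.26).

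At that same minimum level the largest negative differences were those of Egr2, Lpl, Tmem154 and Clec12a. Egr2 had a log2 fold change of -4.53 in MHC-IIhi and of -2.29 in MHC-IIlo (difference -2.25 ± 0.35, edgeR adjusted p = 0.000171). Lpl, the lipoprotein lipase, had 187, 219.8, 236, 305 and 114 CPM in cultured MHC-IIhi, against 305, 372, 316, 301 and 360.5 CPM in fresh MHC-IIhi (-0.59, not past the threshold with all 30 libraries in the fit). In MHC-IIlo it rose by 1.49 (difference -2.08 ± 0.30, likewise not past the threshold in that fit, edgeR adjusted p = 0.0683), and in MHC-IIhi its groups touch, cultured library 6 lying above fresh library 4. Clec12a, an inhibitory lectin, fell in MHC-IIhi (-0.67, likewise not past it with all 30 libraries) and had 1.05 in MHC-IIlo (difference -1.71 ± 0.29), and Tmem154 did not pass in MHC-IIhi (0.34) and had 2.25 in MHC-IIlo (difference -1.91 ± 0.24). Of the 32 interferon-stimulated genes, 6 differed between the subsets, a share close to the 14.3% of all genes tested. Rsad2 (difference 1.75 ± 0.27, edgeR adjusted p = 0.00017) and Cmpk2 (1.53 ± 0.28) changed more in MHC-IIhi. For Ifnb1 (1.82 ± 1.38, edgeR adjusted p = 0.432), Ifit1 (0.43 ± 0.21), Isg15 (0.25 ± 0.24) and Ccl5 (0.08 ± 0.29) the difference did not pass, and its size is known only within the errors given. The same holds for H2-Ab1, with -2.09 in MHC-IIhi and -1.56 in MHC-IIlo (difference -0.53 ± 0.47, edgeR adjusted p = 0.521), and for Mrc1 (-0.02 ± 0.23). A kappa-B site, searched as GGGNNTTTCC on both strands, was in 3 of the 5 neutrophil chemokines with a sequence, against 1.65% of all genes. The 3 were Cxcl1, Cxcl2 and Cxcl3. Cxcl5, not among them, also rose in MHC-IIhi (1.91) with a positive difference between the subsets (4.01). The promoters of Cxcl1 and Cxcl3, described above, are shown with the site in capitals.
Cxcl1 (chr5:90891131-90891208, plus strand): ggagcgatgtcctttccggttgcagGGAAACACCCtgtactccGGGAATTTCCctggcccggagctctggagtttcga
Cxcl3 (chr5:90786003-90786062, plus strand): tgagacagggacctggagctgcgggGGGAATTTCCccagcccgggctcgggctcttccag

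**Figure D5:**
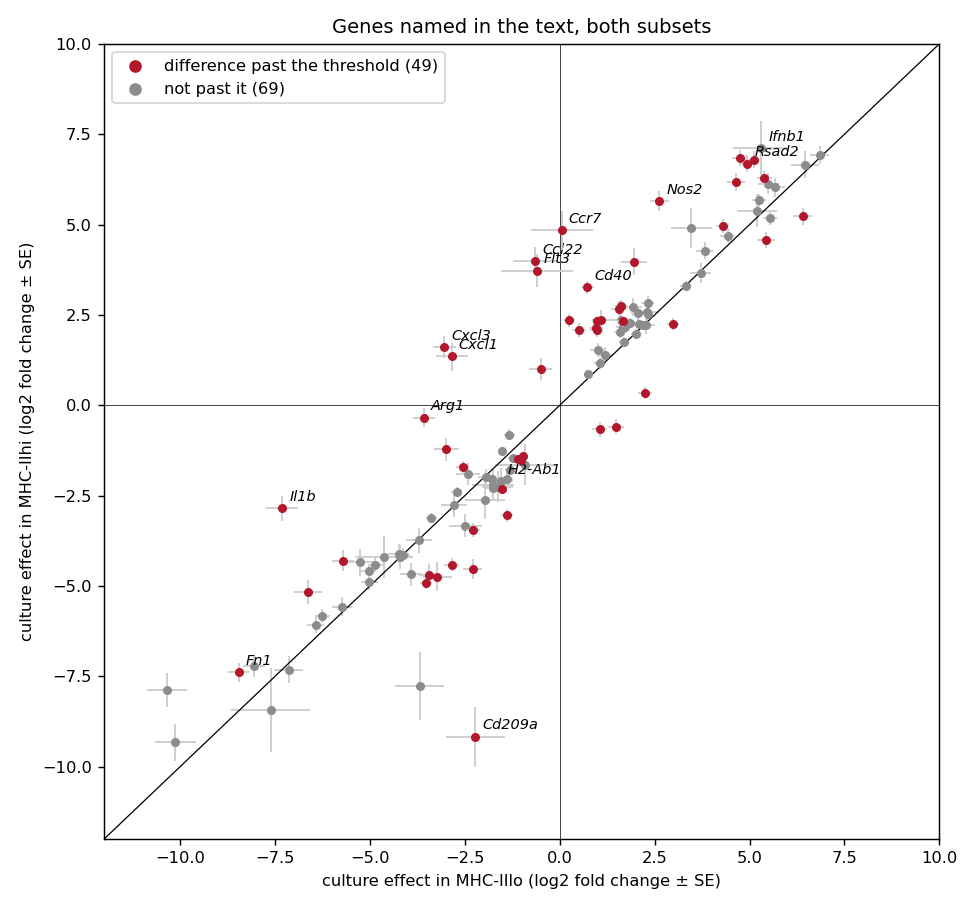
Culture effect in MHC-IIhi (vertical axis) against the culture effect in MHC-IIlo (horizontal axis), both as log2 fold change ± SE, for the 118 genes of the text that have values by library. Red points (49) have a difference between the subsets past the threshold, grey ones (69) do not, and Il1b, Cxcl1, Cxcl3, Ccl22 and Arg1 lie well above the line of equal change.

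Levels in the 5 MHC-IIhi libraries cultured with lactate show whether a second set of cultured cells, with 20 mM lactate added, stood near the first. They are given as levels, since the fresh libraries are the same. Rsad2 averaged 3027 ± 747 CPM with lactate, against 3817 ± 882 CPM without it, Irg1 1163 ± 209.8 against 964 ± 151 CPM, and Gpnmb 4283 ± 903 against 5436 ± 841 CPM. H2-Ab1 averaged 1008 ± 127 CPM with lactate, against 1131 ± 252 CPM without it, Mrc1 137 ± 27.6 against 165 ± 24.0 CPM, and Nr4a1 5.46 ± 1.69 against 5.56 ± 2.07 CPM. Fn1 stood at 350.3 ± 105 CPM with lactate and 105 ± 26.9 CPM without it, and Ifnb1 at 7.31 ± 2.99 and 11.98 ± 7.91 CPM. In all 8 genes both cultured means lay on the same side of the fresh mean. The 8 were picked from genes with large culture changes, so this says little about other genes.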

How the data were processed

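RNA-seq counts per gene were deposited by the authors as raw whole numbers for 46603 genes and 30 libraries. Per the submitters' processing notes, Trimmomatic, STAR, featureCounts and GRCm38 were used; versions and the strand setting are not given in the sources used here. GC content is given as percent per gene in the deposited tables, per the file headers, with no step stated. A second deposited table holds FPKM for 13778 genes, whose values show the same distribution in each column, as after quantile normalisation. Cultured columns carry numbers that differ from the sample names and were mapped to their group, not to a sample.

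The counts of the 20 libraries without lactate were fitted with edgeR 4.0.16 (R 4.3.3) in a quasi-likelihood model of 4 group means, with filterByExpr and TMM; 22923 genes had a count in the 10 MHC-IIhi libraries. CPM are counts scaled to a library total of 1000000. The quasi-likelihood F test with Benjamini-Hochberg adjustment called genes at 0.05, and the difference between subsets was the interaction of the same fit. Fresh MHC-IIhi and fresh MHC-IIlo libraries both carry the numbers 1 to 5. The labels do not say whether the same number means the same mice. The fit treats all libraries as independent, so any such pairing is left out of its errors and p-values. The script was tested on simulated data. Libraries of a group differed by more than counting noise, so none were merged. The p-values measure the spread between these samples. FPKM, DESeq2 1.42.0 and limma 3.58.1 served as alternatives. A gene at 0 was set at 3 counts in each library for a bound on its fold, which covers counting error only.

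The members, the 59 gene lists and the tests were chosen with earlier results of these data known. Named genes are the 12 largest rises and falls with a mean log2 CPM of at least 5 and no overlap, members of the lists with the smallest p (up to 3 per list), a few fixed genes, list members beside their list, and the 4 largest differences each way at that minimum level, with overlap allowed. Predicted, mitochondrial, ribosomal protein and antigen receptor genes were passed over in the first rule. Ifnb1, Tmem173 and some members added beside their lists were chosen after their values were seen. Promoters are RefSeq sequences of GRCm38.p6, matched by symbol. A few genes are not reported here.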

Additional observations from a re-analysis of the deposited data

Results flagged for a closer look

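Of 236 groups of 5 libraries (118 genes, cultured and fresh MHC-IIhi), 12 held a library set apart from the other 4, and chance sets about 1 in 20 groups apart. Fresh library 2 was low for Apoe (734 CPM), Cbr2 (94.6 CPM), Ctsb (2118 CPM) and Irg1 (5.44 CPM). Fresh library 1 was high for Nqo1 (1.23 CPM) and Slamf7 (13 CPM), and fresh library 3 for Flt3 (4.08 CPM). Cultured library 7 was low for Irf7 (2450 CPM) and cultured library 5 for Hk3 (486 CPM). The other 3 rest on few counts: cultured library 5 was high for Cd209a (0.0839 CPM), cultured library 3 for Cd3e (0.549 CPM) and cultured library 7 for S100a9 (0.184 CPM). All 12 kept their call without the library in question.

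The culture effect differed between MHC-IIhi and MHC-IIlo in 49 of the 118 genes, 31 higher and 18 lower in MHC-IIhi by the edgeR interaction test, against 14.3% of all 13682 genes tested (8.27% higher and 6.03% lower). Some of the 118 were named for a large difference or a small p, so nothing is read from their share. The values below are differences of log2 fold changes, MHC-IIhi minus MHC-IIlo. Chemokine, cytokine and receptor genes that were higher were Ccr7 (4.79), Ccl22 (4.64), Cxcl3 (4.64), Il1b (4.47), Flt3 (4.33), Cxcl1 (4.20), Cd40 (2.53), Cxcl10 (2.03), Kdr (1.69), Trem1 (1.46), Osm (1.41), Csf1 (1.16) and Cxcl16 (1.1). Genes of arginine, itaconate and other metabolism were higher too, namely Arg1 (3.24), Nos2 (3.04), Pfkfb3 (2.1), Irg1 (2.09), Vegfa (1.77), Hmox1 (1.51), Sod2 (1.36) and Cd36 (1.12). Interferon and macrophage genes that were higher were Rsad2 (1.75), Adgre1 (1.6), Cmpk2 (1.53), Siglec1 (1.26), Slamf7 (0.89), Irf7 (0.68) and Fcgr1 (0.67). Mmp8 (1.17), Fn1 (1.07) and mt-Cytb (0.85) complete the higher ones. The lower ones were Cd209a (-6.94, on 2 counts in cultured MHC-IIhi), Egr2 (-2.25), Lpl (-2.08), Tmem154 (-1.91), Clec12a (-1.71), H2-DMb1 (-1.65), Il1r2 (-1.56), Mgl2 (-1.53), Ccl6 (-1.39), Cbr2 (-1.24), H2-DMa (-1.17), Ly6a (-1.16), Il7r (-0.86), Ifngr1 (-0.81), Lipa (-0.73), Tkt (-0.47), Fh1 (-0.44) and Rpl4 (-0.39).

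Of these 49 differences, 29 kept their call under all alternatives run and 20 lost it under at least 1. In 8 the loss came with leaving out 1 of the 20 libraries. Mgl2 lost the call without any 1 of 14 libraries (edgeR adjusted p up to 0.118), Irf7 of 13 (up to 0.0865), Rpl4 of 13 (up to 0.0787), Il7r of 12 (up to 0.0735) and Fcgr1 of 11 (up to 0.0643). Trem1 lost it without cultured MHC-IIlo library 1, 5 or 6 (edgeR adjusted p up to 0.0579), Flt3 without fresh MHC-IIlo library 2 (0.104) and Hmox1 without fresh MHC-IIlo library 5 (0.051). Another 9, namely Cd36, Fn1, H2-DMa, Lipa, Lpl, Ly6a, Osm, Siglec1 and Tkt, lost it only with all 30 libraries in the fit (edgeR adjusted p up to 0.216). Cbr2, Slamf7 and mt-Cytb lost it on the FPKM values (limma adjusted p up to 0.31), and of these Cbr2 and mt-Cytb also with all 30 libraries in the fit. Irf7, Fcgr1, Mgl2, Rpl4 and Trem1 lost it with all 30 libraries too, and Fcgr1, Rpl4 and Trem1 on FPKM. In limma voom Cbr2 and Mgl2 did not pass, and with no filter on low counts Rpl4 did not.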

How the results depend on the processing

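The culture effect in MHC-IIhi kept its count of calls within 1.5 times under every alternative but one, the test against a 2-fold change (glmTreat), which called 2178 genes, 1127 higher and 1051 lower, since it asks for a larger change. Leaving out 1 library in turn gave 8127 to 8395 calls, 4120 to 4304 higher and 3969 to 4136 lower. For the difference between the subsets it gave 1645 to 2058 calls, 970 to 1195 higher and 658 to 863 lower. The lower differences numbered 490 with all 30 libraries in the fit, 1374 on log2(FPKM + 1) without a filter and 1359 with levels adjusted for GC content and gene length (chosen after seeing the data), and the cause was not tested. A replicate block on the column number gave 7928 calls, of which 7679 were shared. With that block the difference between the subsets passed in 1918 genes, of which 1639 were shared. Same-numbered cultured and fresh MHC-IIhi libraries correlated at -0.18, 0.108 and -0.181 for numbers 3, 4 and 5. These few values, taken across culture, cannot show whether the numbers pair the samples. Fresh MHC-IIhi libraries 1 to 5 had haemoglobin shares of 0.0003174, 0.003299, 0.0005107, 0.0037 and 0.001323%. Fresh MHC-IIlo libraries 1 to 5 had 0.0002354, 0.003216, 0.0005714, 0.003905 and 0.002412%. Pairing of the fresh subsets was not tested. The Ctss change was 0, with no direction, on log2(FPKM + 0.1) and on log2(FPKM + 1) (limma adjusted p = 1), where it holds the same quantile in each column. The Trem1 difference reversed to -0.07 on log2(FPKM + 1) with or without a filter. Of 200 named genes 161 kept direction and call throughout and 38 lost the call somewhere, mostly in the test against 2-fold. Of 81 named differences between the subsets 51 kept direction and call throughout and 30 lost the call somewhere. Cd3e lost it with no filter (adjusted p = 0.0522), with the block, without fresh library 4 and without cultured library 7. Tmem154 passed without cultured library 5 (adjusted p = 0.00493) and in limma voom (adjusted p = 0.00924). Genes with few counts, such as Cd209a, S100a9 and the haemoglobins, are limited by depth.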

Other observations

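Gene families not described above held both higher and lower members, where 31.6% of all genes tested were higher and 30.4% lower. Counts near those shares, as for the integrins and matrix genes, are not read as a trait of the family. Of 16 complement genes 4 were higher and 10 lower in cultured MHC-IIhi: the alternative pathway factor Cfb (3.92) and C3 (2.57) rose, while the receptor chain Itgax, CD11c (-3.99), fell. Of 7 Fc receptors 2 were higher and 4 lower, with the activating Fcgr4 at 1.38 and the inhibitory Fcgr2b at -2.41. Of 17 scavenger and lectin receptors 6 were higher and 8 lower, Marco (3.30) and the secreted Cd5l (3.59) among those that rose. Of 12 genes for the uptake of dead cells 6 were higher and 4 lower, and the bridging proteins Gas6 (-2.76) and Pros1 (-3.06) fell whereas Mfge8 (1.58) rose. Of 14 growth factors 3 were higher and 7 lower, with Igf1 at 1.66 and Pdgfb at -2.20. Of 15 integrins 5 were higher and 6 lower, and of 21 matrix genes 8 were higher and 7 lower, with the collagenase Mmp13 at 1.76 and the gelatinase Mmp9 at -2.33.

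Of 20 targets of ATF4, the factor of the amino acid response, 9 were higher and 4 lower, with Ddit3 (3.58) and Trib3 (2.36) the largest rises in the list. Of 17 genes of the unfolded protein response 5 were higher and 3 lower. Of 18 colony stimulating factor receptor and cytokine feedback genes 10 were higher and 8 lower, Socs1 at 2.37 and Cish at -2.91, both brakes on cytokine signals. Of 5 endothelial markers 3 were higher and 1 lower: Vwf (2.32), Cdh5 (1.49) and Kdr rose and Pecam1 (-1.63) fell. Of 4 epithelial and tumour markers Epcam (2.35) was higher, and Cdh1 and Krt8 (-1.10) were lower.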
